A study of Bos taurus with 6 samples.

Results

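The genes of respiratory complex I were compared between bovine preadipocytes given the *bta-miR-484* agomir and preadipocytes given the agomir negative control (agomir NC, the control). Members were all genes in the deposited table whose symbol begins with NDUF, which gave 47 of the 23475 genes listed: 37 subunit genes of complex I, *NDUFA4* and its homolog *NDUFA4L2*, and 8 assembly factor genes (*NDUFAF1* to *NDUFAF8*). Complex I is the first enzyme of the mitochondrial respiratory chain. It takes electrons from NADH in an arm that projects into the matrix, hands them to ubiquinone through a chain of iron-sulfur clusters, and pumps protons through an arm buried in the inner membrane. In cells of the fat lineage, respiration is known to change as preadipocytes become adipocytes. The subunits encoded by mitochondrial DNA were not analysed here.

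The preadipocytes came from subcutaneous fat of 3 premature calves and were cultured in medium with serum. RNA was sequenced 48 h after transfection, from 3 libraries with the *bta-miR-484* agomir (a modified RNA duplex that supplies the cells with more of this miRNA) and 3 libraries with the agomir NC (a duplex of the same make that lacks this sequence). Neither the labels nor the text of the study says whether the replicates are these separate calves or parallel cultures of the same cells, so that p-values measure the spread between these libraries, which may be technical. The authors deposited FPKM, a measure scaled to the length of the transcript and the mapped fragments in the library. The number of reads behind each value is unknown.

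The labels call these cells adipocytes and the study's text uses both that name and preadipocytes, so markers of both were examined. Of 11 preadipocyte and fibroblast markers, 9 were above a mean of 0.5 FPKM, with *COL3A1* highest at means of 7552 FPKM (agomir) and 7694 FPKM (control), and *PDGFRA* at 165 and 167 FPKM. *DLK1* was listed at 0 in all 6 libraries and *CD34* lay between 0.383 and 0.783 FPKM. The 8 adipocyte markers summed to between 11.0 and 12.6 FPKM per library. *ADIPOQ* stayed at or below 0.197 FPKM, and *LEP* and *CIDEC* were each listed at 0 in 4 libraries, but the other 5 were above the mean of 0.5 FPKM. Of these, *LPL* had the highest mean over the 6 libraries, at 3.48, 4.33 and 3.67 FPKM with the agomir against 3.79, 3.64 and 3.49 FPKM with the control. *PPARG* was at 3.99, 3.69 and 3.91 FPKM against 3.39, 3.34 and 2.96 FPKM, with groups apart, and *FABP4* at 1.82, 2.33 and 1.54 FPKM against 3.57, 2.21 and 2.88 FPKM, with groups that overlapped. Among the preadipocyte and fibroblast markers, *NT5E* was at 71.7, 70.6 and 77.5 FPKM against 83.1, 89.2 and 89.4 FPKM. These 3 genes, *PPARG* higher and *FABP4* and *NT5E* lower with the agomir, were the markers with an unadjusted p under 0.05 in limma (described below), and their adjusted p was 0.407, 0.363 and 0.209. *PPARG* missed that unadjusted p without agomir replicate 1, agomir replicate 3 or agomir NC replicate 3, and *FABP4* without agomir replicate 3 or agomir NC replicate 1. Markers of other cells were low as well. The 5 endothelial markers summed to between 3.77 and 4.54 FPKM, most of it *VWF*. The 5 macrophage and leukocyte markers summed to between 6.93 and 8.27 FPKM, most of it *CD14*, while *PTPRC* stayed at or below 0.119 FPKM. Skeletal muscle markers summed to at most 0.545 FPKM, with *DES* highest and *MYOD1* and *MYOG* at 0. Nerve markers summed to between 3.10 and 4.94 FPKM, nearly all of it *S100B*, with *SOX10* at 0. In bulk RNA, fewer cells of a kind and less RNA per cell cannot be told apart.

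All 47 NDUF genes were expressed. The lowest was *NDUFAF2* at a mean of 2.61 FPKM over the 6 libraries, and all passed the minimum mean of 0.5 FPKM that left 12422 genes for testing. The median NDUF gene was at 31.5 FPKM, while the median of all genes tested was at 8.36 FPKM. In all, 41 of the 47 lay above the middle of the tested genes, and 31 lay in the upper quartile. The 6 below the middle were assembly factor genes. Together the NDUF genes summed to 1642, 1558 and 1618 FPKM in agomir replicates 1, 2 and 3 and to 1646, 1542 and 1712 FPKM in agomir NC replicates 1, 2 and 3. As a share of all FPKM in the library, this was 0.437% ± 0.0115 (SD, n = 3) with the agomir and 0.439% ± 0.0160 (SD, n = 3) with the agomir NC. The groups overlapped, and the difference between the means was smaller than the SD of either group.

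**Figure D1:**
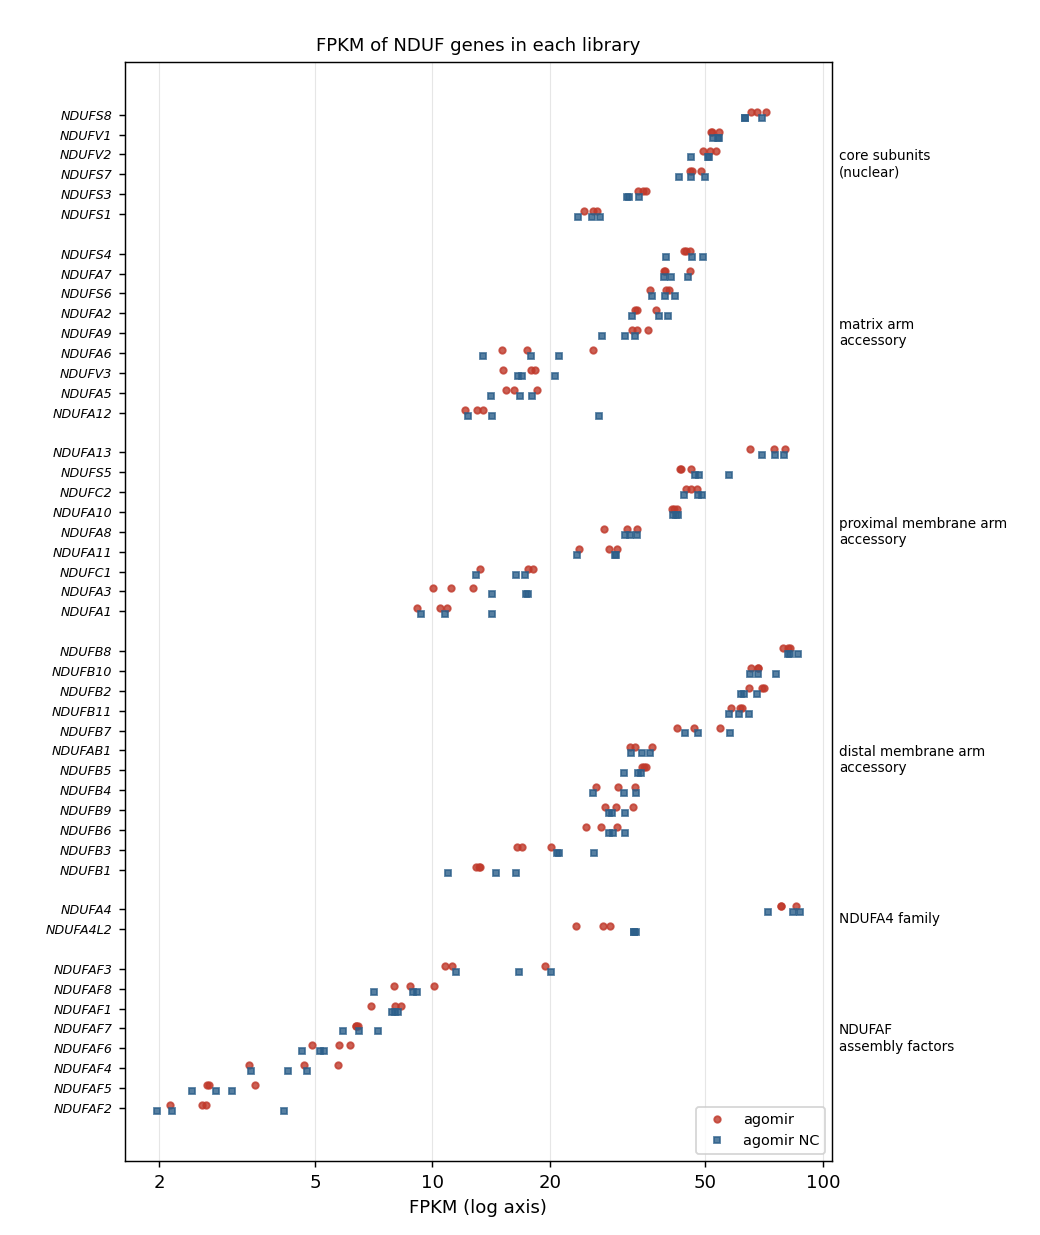
FPKM (log axis) of NDUF genes in the 3 agomir libraries (red circles) and the 3 agomir NC libraries (blue squares), grouped by role and ordered by mean within each role. The lowest 7 are assembly factor genes, and red lies wholly to the left of blue in *NDUFA3*, *NDUFA4L2*, *NDUFB3* and *NDUFS5*.

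NDUF genes as a group were at similar levels in agomir and agomir NC libraries, and 4 of the 47 were lower with the agomir at an unadjusted p under 0.05. These were the complex I genes *NDUFA3*, *NDUFB3* and *NDUFS5*, and *NDUFA4L2*. The values were compared as log2(FPKM + 0.5) with limma's moderated test, two-sided, and a fold change on this scale slightly understates that of genes at low FPKM. The 4 lower genes are 8.51% of the members, where 4.31% of all genes tested were lower at the same threshold. No member was higher at an unadjusted p under 0.05, where 6.63% of all genes tested were. After Benjamini-Hochberg adjustment over all genes tested, limma called 0 of the 47, with the lowest adjusted p at 0.185, and 0.00805% of all genes tested. The median log2 fold change was -0.012 over the 47 members and 0.013 over all genes tested, with 17 members above 0 and 30 below, where 6840 of all genes tested were above 0 and 5582 below. Of the 47, 35 differed by less than 0.1 on the log2 scale, as did 7679 of the 12422 genes tested.

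All agomir libraries lay below all control libraries in 4 members, which were the same 4 genes, and above in 1 member, *NDUFB5*. These are 8.51% and 2.13% of the members, where 6.36% and 10.9% of all genes tested were separated in that way. For a single gene, the exact two-sided permutation test over the 20 labelings of the libraries cannot go below p = 0.1. The 95% confidence interval of the fold change stayed within 1.5-fold in both directions for 44 of the 47 genes and within 1.2-fold for 27. Hence, changes beyond 1.5-fold were outside the interval for most members. The interval excluded no change for the 4 genes with an unadjusted p under 0.05 in limma. For the other members it held no change, and smaller changes within it were not resolved.

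*NDUFA3* encodes a small accessory subunit of the membrane arm and had the largest difference. Its FPKM was 11.1, 10.0 and 12.7 in the agomir libraries, compared with 14.2, 17.6 and 17.4 in the control libraries. All agomir libraries lay below all agomir NC libraries. On average it was at 11.3 ± 1.35 and 16.4 ± 1.88 FPKM (SD, n = 3 each), 31.1% lower with the agomir. On the log2 scale the difference was -0.52 (standard error, SE, 0.10), with limma's unadjusted p at 0.000551 and adjusted p at 0.185. It stayed between -0.61 and -0.44 when any 1 library was left out.

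*NDUFA4L2* was at 28.5, 23.3 and 27.3 FPKM in the libraries with the agomir, compared with 32.9, 33.2 and 32.8 FPKM in the agomir NC libraries. The control libraries were nearly equal, whereas agomir replicate 2 was the lowest of the 6. Means of 26.4 ± 2.71 and 33.0 ± 0.247 FPKM (SD, n = 3 each) gave 19.9% less with the agomir and a log2 fold change of -0.32 (SE 0.071), with limma's adjusted p at 0.225. *NDUFA4L2* is known as a gene induced by hypoxia whose product restrains complex I activity, and its name reflects homology rather than a place in the complex. In the RefSeq table of another build it overlaps *SHMT2*, which was at 88.5 FPKM over the 6 libraries, and without a stated strand setting the reads of overlapping genes cannot be told apart. *SHMT2* itself had a log2 fold change of -0.054 (SE 0.044). The same limit holds for the 13 of 47 members that another gene overlaps in that table, among them *NDUFB3* (by *HYCC2*) and *NDUFAF3* (by *IMPDH2*).

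*NDUFA4*, the homolog that is now assigned to complex IV (cytochrome c oxidase), was among the more abundant NDUF-named genes. It was at 77.8, 78.0 and 85.3 FPKM with the agomir against 87.2, 72.1 and 83.6 FPKM with the control. The groups overlapped fully, and the 95% interval of the fold change ran from 0.891 to 1.11. *NDUFA4* thus stood at 80.7 FPKM and *NDUFA4L2* at 29.7 FPKM on average, both normalized for length. Whether the 2 homologs differed in their response was not tested.

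*NDUFB3*, a small subunit of the distal membrane arm, was at 20.2, 16.4 and 17.0 FPKM with the agomir against 21.1, 20.8 and 26.0 FPKM with the control. The groups did not overlap, but agomir replicate 1 and agomir NC replicate 2 were close. Its mean was 17.9 ± 2.02 against 22.6 ± 2.93 FPKM (SD, n = 3 each), which is 21.0% lower, with a log2 fold change of -0.33 (SE 0.10, adjusted p = 0.324 in limma). Without agomir NC replicate 3, the highest library, the log2 fold change was -0.23.

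*NDUFS5*, which encodes a subunit on the intermembrane face of the complex, was at 45.9, 43.0 and 43.3 FPKM with the agomir against 47.1, 48.0 and 57.5 FPKM with the control. Separation of the groups was narrow, with agomir NC replicate 3 standing above the rest. The log2 fold change was -0.20 (SE 0.074), with limma's unadjusted p at 0.0233 and adjusted p at 0.390. The log2 fold change without agomir NC replicate 3 was -0.11, and limma's unadjusted p was then 0.0639. It also missed 0.05 without agomir replicate 2 (0.0664) and without agomir replicate 3 (0.0598).

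**Figure D2:**
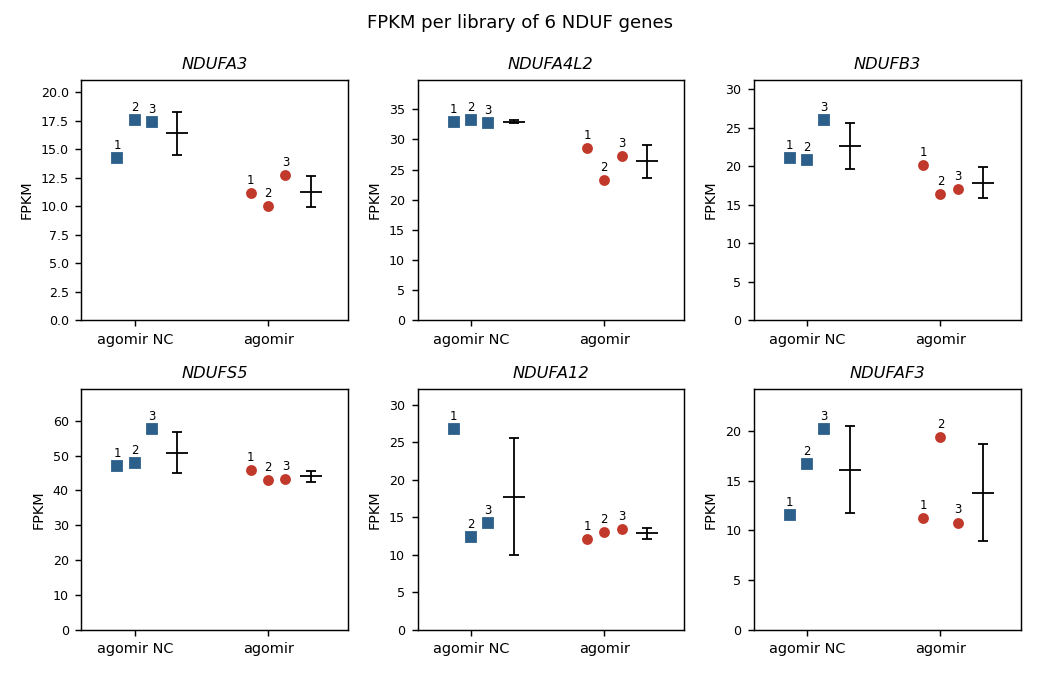
FPKM of 6 NDUF genes in each agomir NC library (blue squares) and agomir library (red circles), with replicate numbers beside the points and the mean ± SD (n = 3) in black. The groups separate in *NDUFA3*, *NDUFA4L2*, *NDUFB3* and *NDUFS5*, whereas in *NDUFA12* agomir NC replicate 1 stands alone at 26.7 FPKM and in *NDUFAF3* both groups spread from about 11 to about 20 FPKM.

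The 7 nuclear core subunits carry the redox chemistry and are conserved from bacteria. None had an unadjusted p under 0.05, where 6.63% of all genes tested were higher and 4.31% lower at that threshold. Of the 7 log2 fold changes, 6 were above 0 and 1 below, and their 95% intervals together spanned folds from 0.920 to 1.15. *NDUFV1*, which binds NADH and the flavin that accepts its electrons, was at 51.7, 52.0 and 54.2 FPKM with the agomir against 54.2, 52.2 and 53.9 FPKM with the control. Its partner *NDUFV2*, an iron-sulfur protein, was at 49.3, 53.2 and 51.5 FPKM against 51.0, 46.0 and 50.7 FPKM. Both stood near 50 FPKM and overlapped between the groups.

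*NDUFS1*, the largest subunit of the complex and a carrier of several iron-sulfur clusters, was the lowest of the core genes. It was at 26.4, 25.7 and 24.5 FPKM with the agomir against 26.8, 23.6 and 25.6 FPKM with the control. *NDUFS7*, which holds the last iron-sulfur cluster before ubiquinone, was at 46.2, 45.7 and 48.6 FPKM against 49.8, 42.7 and 45.9 FPKM. In *NDUFS1* and *NDUFS7* the agomir libraries all lay inside the control range.

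*NDUFS8*, another iron-sulfur protein, was at 67.8, 65.3 and 71.5 FPKM with the agomir against 63.0, 63.2 and 69.6 FPKM with the control, where replicate 3 reached into the agomir range. *NDUFS3* came closest to a difference among the core genes. It was at 35.2, 34.7 and 33.5 FPKM with the agomir against 31.5, 31.8 and 33.8 FPKM with the control, so that agomir replicate 3 lay just below agomir NC replicate 3. Its log2 fold change was 0.091 (SE 0.049), with limma's unadjusted p at 0.0935. Without agomir NC replicate 3 it was 0.12, and the unadjusted p was then 0.0408.

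Accessory subunits of the matrix arm surround this core. Of the 9 genes, 0 had an unadjusted p under 0.05 in limma, where 6.63% of all genes tested were higher and 4.31% lower. The log2 fold changes of the 9 genes, 3 above and 6 below 0, had a median of -0.010. *NDUFS4* was highest at 44.9 FPKM over the 6 libraries, and *NDUFA12* lowest at 15.3 FPKM. *NDUFA9*, whose product lies beside the ubiquinone site, had the largest positive log2 fold change of all members. It was at 33.5, 32.5 and 35.6 FPKM with the agomir against 31.0, 27.1 and 33.0 FPKM with the control. Agomir replicate 2 was below agomir NC replicate 3, and the log2 fold change was 0.16 (SE 0.072), with limma's unadjusted p at 0.0559 and adjusted p at 0.467. It was 0.080 when agomir NC replicate 2 was left out and 0.22 when agomir NC replicate 3 was, where the unadjusted p was 0.0146.

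*NDUFA12* was at 12.1, 13.03 and 13.4 FPKM in the libraries with the agomir, compared with 26.7, 12.3 and 14.2 FPKM in the agomir NC libraries. A single library, agomir NC replicate 1, stood above the other 5. The log2 fold change of -0.37 (SE 0.22, adjusted p = 0.590 in limma) became -0.042 without it, and -0.59 without agomir NC replicate 2, where the unadjusted p was 0.0201. The assembly factor gene *NDUFAF2* encodes a paralog of NDUFA12 that holds its place during assembly, and it was highest in the same library. It was at 2.64, 2.13 and 2.57 FPKM with the agomir against 4.17, 1.97 and 2.16 FPKM with the control. *NDUFA12* and *NDUFAF2* had the widest spread of the 47 genes in the agomir NC group, with SDs at 44.1% of the mean for each.

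*NDUFA6* varied between libraries in both groups, at 25.7, 15.1 and 17.4 FPKM with the agomir against 21.1, 13.5 and 17.9 FPKM with the control. Its log2 fold change was 0.13 (SE 0.19), but -0.081 without agomir replicate 1 and -0.038 without agomir NC replicate 2. The remaining 6 matrix arm genes, *NDUFV3*, *NDUFS4*, *NDUFS6*, *NDUFA2*, *NDUFA5* and *NDUFA7*, overlapped between groups with log2 fold changes from -0.089 (*NDUFA2*) to 0.036 (*NDUFA5*), and *NDUFA2* was lower at an unadjusted p under 0.05 only without agomir NC replicate 2.

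Among the 9 accessory genes of the proximal membrane arm, the part nearest to the matrix arm, *NDUFA3* and *NDUFS5* were lower and 0 were higher at an unadjusted p under 0.05, where 4.31% and 6.63% of all genes tested were. Of the 9 log2 fold changes, 8 were below 0, and the median was -0.033. *NDUFA13*, also known as GRIM19, was the highest of this set at 74.1 FPKM over the 6 libraries. *NDUFA1* was the lowest at 10.8 FPKM. It was at 10.9, 10.5 and 9.15 FPKM with the agomir against 9.33, 10.7 and 14.2 FPKM with the control, where replicate 3 alone was high. The steadiest of all 47 genes was *NDUFA10*. It was at 42.3, 41.5 and 41.1 FPKM against 42.0, 41.3 and 42.6 FPKM, and its highest library was 1.04 times its lowest. *NDUFA8*, *NDUFA11*, *NDUFC1* and *NDUFC2* overlapped between the groups, with log2 fold changes between -0.066 and 0.066.

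In the distal membrane arm, which holds the outer proton pumps, 1 of 12 accessory genes was lower (*NDUFB3*) and 0 were higher at an unadjusted p under 0.05, against the same 4.31% and 6.63% of all genes tested. Of the 12 log2 fold changes, 9 were below 0, and the median was -0.028. *NDUFB8* was the highest of this arm at 82.1 FPKM. It was at 82.4, 78.9 and 81.6 FPKM with the agomir against 82.1, 81.1 and 86.5 FPKM with the control. The gene *NDUFB5* was the member with every agomir library above every agomir NC library, at 35.2, 34.4 and 34.8 FPKM against 34.2, 30.9 and 33.6 FPKM. The gap between agomir replicate 2 and agomir NC replicate 1 was small, and the log2 fold change was 0.082 (SE 0.052, unadjusted p = 0.144 in limma). *NDUFB2* had a log2 fold change of 0.090 (SE 0.054) with overlapping groups, and its unadjusted p was under 0.05 only without agomir replicate 1 or agomir NC replicate 3. *NDUFAB1*, the mitochondrial acyl carrier protein that also serves fatty acid synthesis in mitochondria, was at 32.01, 33.1 and 36.5 FPKM with the agomir against 34.4, 32.3 and 36.0 FPKM with the control. *NDUFB1* was lowest of this arm, with agomir libraries at 12.9, 13.2 and 13.2 FPKM and agomir NC libraries at 11.0, 14.6 and 16.4 FPKM. It was lower at an unadjusted p under 0.05 only without agomir NC replicate 1, and *NDUFB6* only without agomir replicate 1.

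Assembly factors help to build the complex and are not part of the finished enzyme. The 8 NDUFAF genes had a median of 5.90 FPKM, while the 7 core genes had a median of 50.3 FPKM, a comparison of levels normalized for length. None of the 8 had an unadjusted p under 0.05, where 6.63% of all genes tested were higher and 4.31% lower. The log2 fold changes of the 8 genes, 4 above and 4 below 0, had a median of 0.024. *NDUFAF3* and *NDUFAF4* act together in assembly of the ubiquinone-binding part. *NDUFAF3* was at 11.2, 19.4 and 10.8 FPKM with the agomir against 11.5, 16.7 and 20.1 FPKM with the control. Each group held values near both ends of the range, and the log2 fold change was -0.23 (SE 0.23). It was -0.50 without agomir replicate 2, where the unadjusted p was 0.0276, and -0.058 without agomir NC replicate 3. *NDUFAF4* was at 5.72, 3.39 and 4.69 FPKM with the agomir against 4.76, 4.26 and 3.43 FPKM with the control, and its log2 fold change of 0.12 (SE 0.17) was -0.038 without agomir replicate 1.

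*NDUFAF6* was at 5.78, 6.17 and 4.91 FPKM with the agomir against 5.16, 5.26 and 4.65 FPKM with the control. Agomir replicate 3 lay within the control range, and the log2 fold change was 0.14 (SE 0.097, unadjusted p = 0.172 in limma). It was 0.23 at an unadjusted p of 0.0407 without that library, but 0.079 without agomir replicate 2 and 0.094 without agomir NC replicate 3. *NDUFAF5* and *NDUFAF7* encode enzymes that modify core subunits. *NDUFAF5* was at 3.51, 2.65 and 2.67 FPKM against 2.80, 3.06 and 2.42 FPKM. *NDUFAF7* was at 6.44, 6.38 and 6.38 FPKM against 6.48, 5.89 and 7.25 FPKM. Both overlapped between groups. *NDUFAF8*, a partner of NDUFAF5, was at 10.1, 7.97 and 8.74 FPKM against 9.13, 8.89 and 7.10 FPKM. *NDUFAF1*, part of the membrane complex that assembles the proximal pump modules, was at 8.02, 8.29 and 6.97 FPKM against 7.997, 8.18 and 7.89 FPKM. In these the groups overlapped as well.

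Libraries of the same group also differed from each other. Agomir NC replicate 2 held the lowest of the 6 values for 17 of the 47 genes and agomir replicate 2 for 12. Agomir replicate 1 and agomir NC replicate 3 held the highest for 13 each. Relative to each gene's mean, the median NDUF gene lay at -0.056 and -0.072 on the log2 scale in agomir and agomir NC replicate 2, and at 0.055 in agomir NC replicate 3. Over all genes tested, these medians were 0.021, -0.016 and 0.0022. The median log2 fold change of the 47 genes was -0.057 without agomir NC replicate 2 and 0.015 without agomir NC replicate 3, with 14 and 29 members above 0.

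Other genes of the pathway were described from lists. Of 11 further assembly factor genes of complex I, 2 were higher and 1 was lower at an unadjusted p under 0.05, with none at an adjusted p under 0.05 in limma, and the median log2 fold change was 0.059. Of all genes tested, 6.63% were higher and 4.31% lower at that unadjusted p. *ACAD9*, which works with NDUFAF1, ECSIT and TMEM126B in the membrane assembly complex, was lower. It was at 3.29, 3.71 and 3.95 FPKM with the agomir against 5.32, 4.70 and 4.85 FPKM with the control. All agomir libraries lay below all agomir NC libraries, and the log2 fold change was -0.40 (SE 0.093, adjusted p = 0.257 in limma). Its partners *ECSIT* and *TMEM126B* had log2 fold changes of 0.067 and 0.063 with overlapping groups. *DMAC1*, named for assembly of the distal membrane arm, was at 8.72, 8.28 and 7.46 FPKM against 6.93, 5.98 and 7.07 FPKM, a log2 fold change of 0.27 (SE 0.088, adjusted p = 0.344 in limma). *TMEM186* was at 2.70, 3.36 and 3.22 FPKM against 3.02, 1.87 and 1.90 FPKM, where agomir NC replicate 1 overlapped the agomir libraries. Its log2 fold change was 0.40 (SE 0.16), with limma's adjusted p at 0.409. Without agomir replicate 2 or 3, or agomir NC replicate 2 or 3, the unadjusted p was above 0.05. The highest gene of the list was *TMEM70* at 14.0 FPKM and the lowest *NUBPL* at 2.43 FPKM.

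Complex II, the other main entry of electrons to ubiquinone, had 1 of 8 genes higher and 0 lower at an unadjusted p under 0.05, beside 6.63% and 4.31% of all genes tested. This was *SDHA*, its flavoprotein subunit and the highest of the list, at 137, 137 and 134 FPKM with the agomir against 127, 130 and 129 FPKM with the control. The groups did not overlap, the log2 fold change was 0.083 (SE 0.037), and the unadjusted p was 0.0499 (adjusted p = 0.456 in limma). It was above 0.05 whichever library was left out. *SDHAF1* was the lowest of the list at 2.32 FPKM over the 6 libraries, although with the agomir *SDHAF3* was slightly lower (2.36 against 2.38 FPKM). Of 33 nuclear genes of complexes III to V, 2 were higher and 1 lower at an unadjusted p under 0.05, near the 6.63% and 4.31% of all genes tested, and the median log2 fold change was -0.0073. The higher were *UQCRC1* and *CYC1* of complex III. *UQCRC1* was at 126, 127 and 128 FPKM against 117, 112 and 116 FPKM, with a log2 fold change of 0.14 (SE 0.038, adjusted p = 0.305 in limma). *CYC1*, cytochrome c1, was at 49.0, 53.0 and 49.7 FPKM against 47.8, 43.4 and 46.7 FPKM. Both were separated between the groups, though *CYC1* had an unadjusted p above 0.05 without agomir replicate 2 or agomir NC replicate 2. It also missed 0.05 in limma with a term for the replicate number (0.0525). *COX6B1* of complex IV was lower, at 54.4, 52.4 and 56.1 FPKM against 63.9, 56.3 and 71.3 FPKM, with a log2 fold change of -0.23 (SE 0.077, adjusted p = 0.361 in limma), and it missed an unadjusted p of 0.05 without agomir replicate 2 (-0.20) or agomir NC replicate 3 (-0.14). By the mean over the 6 libraries, *ATP5F1B* was highest in this list at 235.4 FPKM, just above *ATP5F1A* at 235.2 FPKM. In the control libraries alone, *ATP5F1A* was higher, at 235.5 FPKM against 230.6 FPKM. The lowest gene was *COX7B* at 18.3 FPKM.

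Of 12 regulators of mitochondrial biogenesis, 1 was higher and 0 were lower at an unadjusted p under 0.05, beside 6.63% and 4.31% of all genes tested, with a median log2 fold change of 0.044. *PPARGC1B*, a coactivator of respiratory genes, was at 1.02, 1.06 and 0.974 FPKM with the agomir against 0.723, 0.772 and 0.722 FPKM with the control. The groups were separate and each was narrow, with a log2 fold change of 0.29 (SE 0.13, adjusted p = 0.439 in limma) at a level where the added 0.5 weighs, and no library could be left out without its unadjusted p passing above 0.05. It was the lowest of this list, and *YY1* the highest at 18.1 FPKM. *PPARGC1A*, the related coactivator, overlapped between groups at 5.69 ± 0.911 and 5.53 ± 0.421 FPKM (SD, n = 3 each). *NRF1*, *GABPA* and *TFAM*, which drive nuclear and mitochondrial respiratory genes, had log2 fold changes of 0.12, 0.024 and 0.076 with overlapping groups. The other enzymes that feed ubiquinone had 0 of 5 tested genes with an unadjusted p under 0.05 in limma. *SQOR* was the highest of these at 86.4 FPKM, and *CHDH* was listed at 0 in 4 libraries and at 0.0138 and 0.0455 FPKM in the others, below the minimum for testing. In total, 6 of the 69 related genes tested were higher and 2 were lower at an unadjusted p under 0.05, where 6.63% and 4.31% of all genes tested were.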

How the data were processed

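RNA sequencing of 3 agomir and 3 agomir NC libraries was used, grouped by the treatment label. The authors deposited FPKM per gene and library. The submitters' processing notes name fastp, HISAT2, StringTie and the build ARS-UCD1.2, with no versions or roles, and the sources used here state neither annotation nor strand setting. FPKM of short or overlapping genes depends on how fragments were assigned. Whole reads could not be recovered, because log2 ratios of 2983 low genes between libraries put no more than 10 genes into any bin of width 0.002, and depth and counting error are therefore unknown. From the deposited FPKM, genes with a mean of at least 0.5 were taken as log2(FPKM + 0.5) and compared with limma (version 3.58.1, R 4.3.3) with a variance trend, without a replicate term, and with Benjamini-Hochberg adjustment over all 12422 genes. In simulated data for these 12422 genes, the agomir comparison recovered 67.5% of 200 genes changed by 1.5-fold at an adjusted p under 0.05. For 200 genes changed by 2-fold it recovered 86.0%. Noise in the simulation was normal and drawn independently for each gene. An adjusted p depends on how many genes change, and in the real libraries limma called 1 of the 12422. These shares therefore do not give the recovery for NDUF genes in the real libraries. Exact permutation tests used the 20 labelings. The members and gene lists were chosen with earlier results of these data known. Genes named were the members with an unadjusted p under 0.05, the 5 largest differences in each direction, the 3 highest and 3 lowest by level, the core subunits, *NDUFA4*, *NDUFA4L2* and the NDUFAF genes, and in related lists those with an unadjusted p under 0.05 and the highest and lowest by level. Some results under this rule are not reported here. Any other gene was named after its values were seen. Gene spans and overlaps were taken from RefSeq on ARS-UCD2.0, which matched 11471 of the 12422 genes and all 47 members. Alternatives were other pseudocounts, filters and scalings, removal of a trend with gene span, no variance trend, array weights, a replicate block, and leaving out each library.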

Additional observations from a re-analysis of the deposited data

How the results depend on the processing

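No NDUF gene passed an adjusted p of 0.05 in limma under any of the 16 alternatives, while at an unadjusted p under 0.05 the count was 2 to 6 lower and 0 to 3 higher. *NDUFA3* and *NDUFA4L2* were lower at that p under all 16, *NDUFB3* under 15 and *NDUFS5* under 11. Without a filter, 2 were lower, and 1 related gene was lower, beside 2.81% of all genes. Quantile normalization, array weights and the replicate block each gave 1 higher gene (*NDUFA9*), beside 5.60%, 6.59% and 5.94% of all genes. Members with all agomir libraries above numbered 0 after median-ratio scaling and 3 after quantile normalization, beside 8.99% and 8.94% of all genes. With 1 library left out, the members at an unadjusted p under 0.05 were 0 to 3 higher and 3 to 6 lower, those with separate groups 1 to 6 higher and 4 to 10 lower, and the related genes 2 to 6 higher and 1 to 6 lower. The extremes came from agomir NC replicate 3 (3 higher, 6 separate and higher) and agomir NC replicate 2 (6 lower, 10 separate and lower). Over the same 6 fits, 4.47% to 6.68% of all genes were higher and 3.08% to 4.80% lower at that p, and 14.8% to 17.5% were separate and higher and 9.88% to 11.9% separate and lower. Without agomir NC replicate 3, 5.93% were higher and 3.08% lower, and without agomir NC replicate 2, 5.28% and 4.29%. Fewer libraries separate more easily, and beyond this the cause was not tested. The median log2 fold change of the members stayed between -0.057 and 0.015. Of 303 log2 fold changes of 19 genes, 300 kept their sign and stayed above an adjusted p of 0.05. The exceptions were *NDUFA6*, between -0.081 and 0.29, and *NDUFAF4*, between -0.038 and 0.30, when 1 library was left out.

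The agomir and control libraries carry the same replicate numbers. Correlations of their deviations were -0.051, 0.053 and 0.039 for pairs with a shared number, and ran from -0.11 to 0.072 for the other pairs. In the NDUF genes, replicate 2 had the lowest sum with the agomir (1558 FPKM) and with the control (1542 FPKM). Whether a shared number stands for a shared calf was not tested. With the replicate block, 1 NDUF gene was higher and 4 were lower, and 3 related genes were higher and 4 lower, beside 5.94% and 4.20% of all genes. *SDHA*, *CYC1* and *PPARGC1B* then had an unadjusted p above 0.05 in limma (0.0902, 0.0525 and 0.0805).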
